A study of Mus musculus with 16 samples.

Results

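Triglyceride in white fat is held in lipid droplets and released by lipolysis, and the RNA levels of 10 genes of this process were followed here in gonadal white adipose tissue (gWAT). The genes were chosen by name from the 19373 genes of the table: the lipases *Pnpla2*, *Lipe* and *Mgll*, the lipase partners *Abhd5* and *G0s2*, the droplet coat genes *Plin1*, *Plin2*, *Plin4* and *Cidec*, and the receptor gene *Adrb3*. All 10 were in the table, and all 10 passed the filter on low values that left 13147 genes to test. RNA came from 16 male C57Bl6/J mice in 4 groups of 4, kept for 20 weeks on standard chow or a high-fat diet (HFD) and then fasted for 4 h. On each diet, Mboat7 ASKO mice carried the floxed *Mboat7* allele together with Cre recombinase driven by the adiponectin promoter, and Mboat7 flox/flox control mice carried the floxed allele alone. The Cre is meant to act in adipocytes alone, so *Mboat7* is kept in immune, stromal and vascular cells, and the ages of the mice were given only as matched.

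In a fasted adipocyte, ATGL (the product of *Pnpla2*) cuts triglyceride, hormone-sensitive lipase (*Lipe*) cuts diglyceride, and monoglyceride lipase (*Mgll*) frees the last fatty acid. CGI-58 (*Abhd5*) switches ATGL on, G0S2 blocks it, and perilipin 1 (*Plin1*) on the droplet surface holds CGI-58 until the beta-3 adrenergic receptor (*Adrb3*) raises cyclic AMP. Perilipin 2 (*Plin2*) coats droplets in most cell types, macrophages among them, whereas perilipin 1, perilipin 4 and CIDEC (*Cidec*, which fuses droplets) are proteins of fat-storing adipocytes.

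Values are FPKM, the fragments found on a gene for its length in kilobases and for the size of the library, from 1 library per mouse. From the steps between low values, the depth was roughly estimated at 230000 to 408000 fragments per mouse on the authors' scale. The fragment numbers that follow rest on this estimate. The members therefore rested on few fragments in places: the median over the 16 mice was about 278 for *Cidec*, 102 for *Plin2*, 64 for *Plin1*, 59 for *Mgll*, 50 for *Pnpla2* and 30 for *Lipe*, but 17 for *Adrb3*, 15 for *Abhd5* and for *Plin4*, and 9 for *G0s2*. *Abhd5*, *Adrb3* and *G0s2* went down to about 3 fragments in their lowest mouse. The 10 most abundant genes of a mouse took 32.6% to 55.2% of its summed FPKM. *Mboat7*, the gene targeted in adipocytes, averaged 3.16 FPKM ± 1.86 (SD, n = 4) in flox/flox and 1.07 ± 1.38 (SD, n = 4) in ASKO mice on chow, and 0.938 ± 1.11 against 0.935 ± 1.23 (SD, n = 4 each) on HFD. At this depth its level in whole tissue separated the genotypes on neither diet, since the mice of the 2 genotypes overlapped, and genotype is as the labels give it. As a check of the tissue, *Adipoq*, which encodes adiponectin, lay between 318.5 and 1871 FPKM in the 16 mice. The adipocyte marker *Cfd*, for adipsin, was low on HFD, at 13.2 to 33.85 FPKM in the 8 HFD mice. *Lep*, for leptin, lay at 311.6 to 891 FPKM in the same mice. In RNA from whole tissue, fewer cells of a type and less RNA per cell cannot be told apart.

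The 3 members that passed the test for diet in Mboat7 ASKO mice were *Plin2*, which was higher on HFD, and *Pnpla2* and *Plin4*, which were lower. The bases before their transcription starts are shown here because these 3 genes carried that comparison, 1 of them higher and the other two lower on HFD. They are RefSeq start windows on GRCm38.p6 (the build called mm10), read 5′ to 3′ on the strand of the gene and ended before any exon that GENCODE M21 annotates. Capitals mark a nuclear receptor half-site (AGGTCA on either strand) or a GC box (GGGCGG on either strand).
Plin2, chr4:86670061-86670309, minus strand: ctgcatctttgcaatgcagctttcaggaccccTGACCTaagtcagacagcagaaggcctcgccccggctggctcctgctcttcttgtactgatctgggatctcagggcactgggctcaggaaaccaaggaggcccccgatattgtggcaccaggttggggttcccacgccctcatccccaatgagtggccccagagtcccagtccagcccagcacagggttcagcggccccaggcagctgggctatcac
Pnpla2, chr7:141454938-141455187, plus strand: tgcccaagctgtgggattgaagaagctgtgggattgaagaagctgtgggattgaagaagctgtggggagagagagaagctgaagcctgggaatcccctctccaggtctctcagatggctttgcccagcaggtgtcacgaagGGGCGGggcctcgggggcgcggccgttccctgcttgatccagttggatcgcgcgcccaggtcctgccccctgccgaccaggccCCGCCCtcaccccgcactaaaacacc
Plin4, chr17:56109804-56110032, minus strand: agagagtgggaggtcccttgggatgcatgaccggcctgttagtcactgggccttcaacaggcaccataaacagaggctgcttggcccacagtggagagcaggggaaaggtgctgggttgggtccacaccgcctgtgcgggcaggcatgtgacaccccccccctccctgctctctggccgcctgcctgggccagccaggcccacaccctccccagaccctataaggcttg

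In all, 6 motifs were searched as exact letters on both strands in the whole 250 bases before each RefSeq start, where 9 members were matched and *Adrb3* was not. For *Lipe*, *Mgll* and *G0s2*, GENCODE M21 annotates exons in these windows, and what remains before them (0 bases for *Lipe* and *Mgll*, 10 for *G0s2*) holds none of the matches. Annotated exons also shorten the windows of *Plin1* (123 bases remain), *Plin4* (229), *Abhd5* (242) and *Plin2* (249). What remains for *Plin1*, *Abhd5* and *Plin2* holds the matches given below. The half-site AGGTCA lay before *Plin2* and *Abhd5*, and 14% of all 32851 start windows held it. GGGCGG lay before *Pnpla2*, *Lipe*, *Mgll*, *Abhd5* and *G0s2* (32.7% of all windows), the C/EBP letters TTGCNNAA before *Plin1* and *Cidec* (9.56%), and the E-box CACGTG before *Lipe* and *Mgll* (6.02%). For *Cidec*, the match lay before another RefSeq start inside the gene, and the window before the 5′ end of the gene held none. The direct repeat AGGNCANAGGNCA, the spacing that PPARγ with RXR reads and which contains half-site letters, was before none of them (0.338% of all windows), and neither was TATAAA (12.4%). A match in these letters is a description of the sequence and no evidence of binding.

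On chow, the order of the members by FPKM was led by *Cidec* in both genotypes. In flox/flox mice, *Cidec* averaged 602 FPKM ± 222 (SD, n = 4), above every value of the next member, *Plin1*, at 97.0 ± 18.2 (SD, n = 4). The middle of the order held neighbours that overlapped between mice, with *Pnpla2* at 74.6 ± 43.2, *Plin2* at 64.0 ± 6.38, *Mgll* at 50.2 ± 7.35, *G0s2* at 39.3 ± 6.42, *Lipe* at 28.9 ± 10.8 and *Adrb3* at 26.8 ± 8.76 FPKM (SD, n = 4), except that *Plin2* did not overlap *Mgll*. *Abhd5* at 14 ± 7.63 and *Plin4* at 9.89 ± 2.59 FPKM (SD, n = 4) were the lowest. On HFD, *Plin2* moved up to the level of *Cidec*: it averaged 318 ± 37.5 against 444 ± 157 FPKM in flox/flox mice and 413 ± 98.8 against 376 ± 103 in ASKO mice (SD, n = 4 each), with overlapping values in both genotypes. No other member overlapped *Plin2* on HFD.

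**Figure D1:**
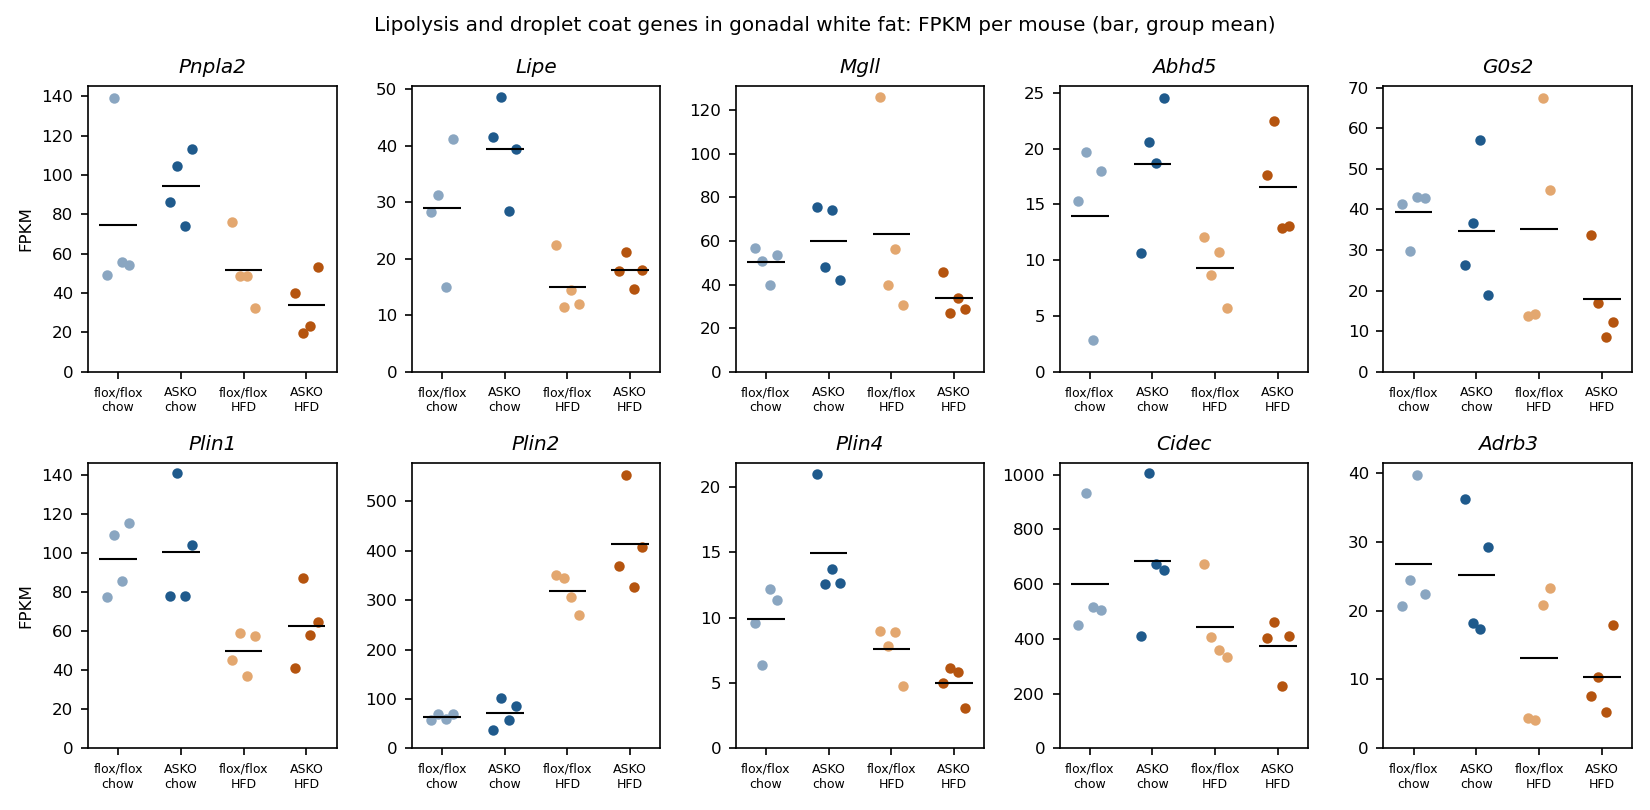
FPKM of the 10 members in each of the 16 mice (points) with the group mean (bar), 1 panel per gene, linear axes from 0 whose ranges differ between panels. The 8 HFD mice sit at 269.8 to 553 FPKM for Plin2, all above the 8 chow mice at 37.8 to 102.5, while no other member separates the diets in all mice.

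The first question was how the diet changed these genes in control and in Mboat7 ASKO fat. *Plin2* was higher on HFD in both genotypes and was the only member past the test in flox/flox mice (1 of 10, where 2.91% of all tested genes passed). A gene passed at a limma adjusted p under 0.05 and a difference above 0.5 in mean log2(FPKM + 1). In ASKO mice, 3 of 10 members passed (3.43% of all genes), of which *Pnpla2* and *Plin4* were lower on HFD (1.3% of all genes passed in that direction). Over both genotypes together, which gives 8 mice per diet, 6 of 10 members passed (7.53% of all genes): *Plin2* was higher (4.49% of all genes), and *Pnpla2*, *Lipe*, *Plin1*, *Plin4* and *Adrb3* were lower (3.04% of all genes). The median difference of the 10 members was -0.44 in flox/flox mice, -0.91 in ASKO mice and -0.77 over both, where the medians of all tested genes were 0.00, 0.03 and 0.01.

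*Plin2* measured 57.8, 68.8, 59.2 and 70.1 FPKM in the flox/flox mice on chow, and 350.9, 344, 307 and 269.8 on HFD. In the ASKO mice it measured 37.8, 102.5, 58.0 and 85.0 FPKM on chow, and 368, 553, 326 and 407 on HFD. The lowest HFD mouse of either genotype was thus well above the highest chow mouse. The difference on the log2(FPKM + 1) scale was 2.29 ± 0.28 (SE) in flox/flox mice (limma adjusted p = 0.000172), 2.60 ± 0.28 in ASKO mice (limma adjusted p = 4.9e-05) and 2.44 ± 0.20 over both (5.44-fold, limma adjusted p = 7.33e-07). Groups that do not overlap were found for 8.34% of all genes in flox/flox mice, for 9.6% in ASKO mice and, with 8 mice per diet, for 2.22%, and among the members for 2 of 10 (*Plin2* and *Plin1*), 4 of 10 (*Plin2*, *Pnpla2*, *Lipe* and *Plin4*) and 1 of 10 (*Plin2*). The exact permutation p for 8 against 8 mice was 0.000155, two-sided, the smallest this design can give.

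The other coat genes did not share this direction. *Plin1*, the adipocyte perilipin, measured 77.6, 109, 85.6 and 115 FPKM in flox/flox mice on chow and 45.0, 58.9, 37.2 and 57.4 on HFD. In ASKO mice it measured 78.0, 141, 77.8 and 104 FPKM on chow and 41.4, 87.2, 57.8 and 64.9 on HFD. The diets were separated in the flox/flox mice, and in ASKO mice 1 HFD mouse, at 87.2 FPKM, reached into the chow values. Over both genotypes *Plin1* was lower on HFD by -0.81 ± 0.21 (SE, 1.76-fold, limma adjusted p = 0.0199), and the values within the genotypes were -0.96 ± 0.29 (limma adjusted p = 0.0977) and -0.67 ± 0.29 (limma adjusted p = 0.274).

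*Plin4*, the largest of the perilipins, was low throughout. It measured 9.61, 6.37, 12.2 and 11.4 FPKM in flox/flox mice on chow and 9.01, 7.84, 8.88 and 4.75 on HFD, which overlapped. In ASKO mice it measured 21, 12.6, 13.8 and 12.6 FPKM on chow and 5.01, 6.14, 5.82 and 3.08 on HFD, which did not. The difference was -0.34 ± 0.36 (SE, limma adjusted p = 0.768) in flox/flox mice, -1.41 ± 0.36 (2.66-fold, limma adjusted p = 0.0354) in ASKO mice and -0.87 ± 0.25 over both (limma adjusted p = 0.0415). That the 2 genotypes differed in this was not shown: the interaction was -1.08 ± 0.50 (SE, limma adjusted p = 0.792). *Cidec*, the most abundant member on chow, ran from 409 to 1006 FPKM over the 8 chow mice and from 227 to 675 over the 8 HFD mice, and its difference over both genotypes was -0.64 ± 0.23 (SE, limma adjusted p = 0.117).

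**Figure D2:**
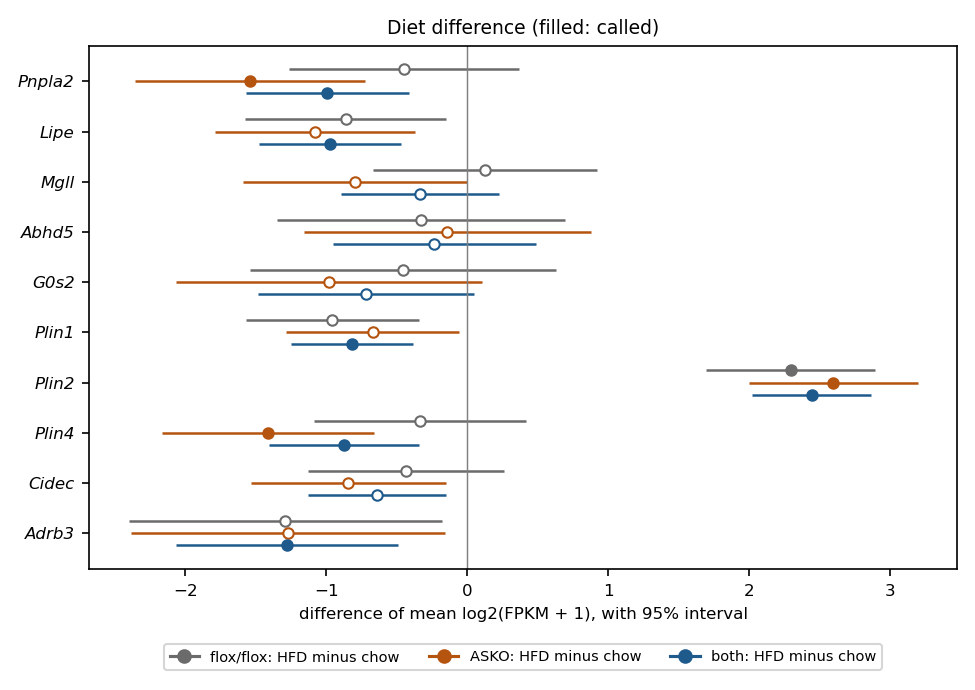
Difference HFD minus chow in mean log2(FPKM + 1) for each member, with 95% intervals from limma, in flox/flox mice, ASKO mice and both together, and filled points for members past the test. Plin2 stands at 2.29, 2.60 and 2.44, while Pnpla2, Lipe, Plin1, Plin4 and Adrb3 lie to the left of 0 and are filled over both genotypes.

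Because *Plin2* and *Plin1* lay on opposite sides, their ratio within a mouse was computed after their values had been seen. Scaling between mice cancels in it, and as a chosen measure it carries no test. The ratio of *Plin2* to *Plin1* FPKM was 0.607 to 0.744 in flox/flox and 0.485 to 0.814 in ASKO mice on chow, and 4.7 to 8.24 in flox/flox and 5.63 to 8.9 in ASKO mice on HFD. *Plin1* RNA thus exceeded *Plin2* RNA per length in all 8 chow mice, and *Plin2* exceeded *Plin1* in all 8 HFD mice. The mean difference of the log2 ratio was 3.28 in flox/flox and 3.3 in ASKO mice, about 9.73-fold and 9.83-fold. Of the summed FPKM of *Plin1*, *Plin2* and *Plin4*, *Plin2* made up 27.6% to 42.1% on chow and 81.3% to 88.8% on HFD.

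**Figure D3:**
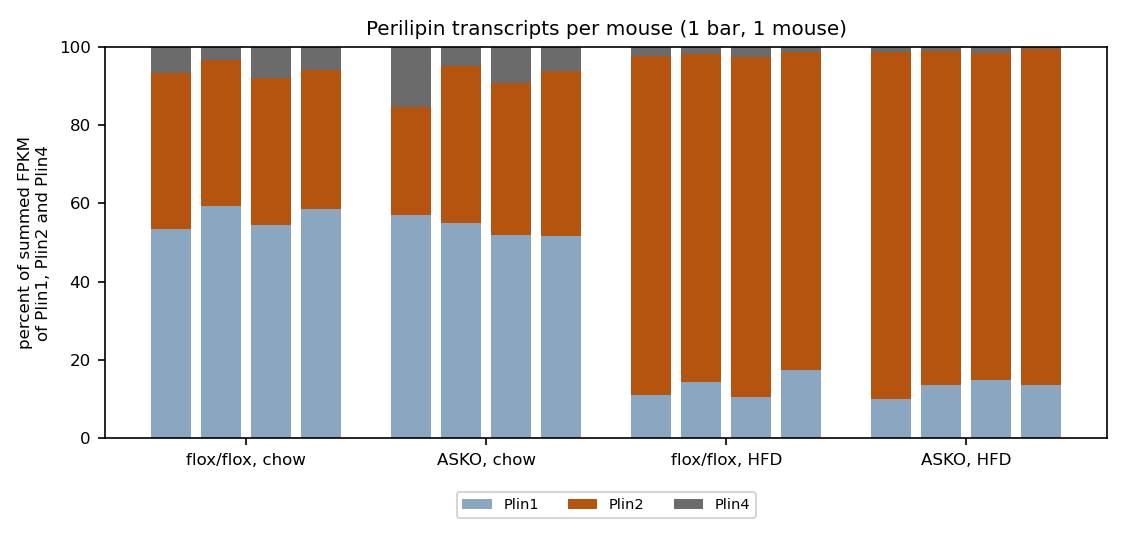
Share of Plin1, Plin2 and Plin4 in the summed FPKM of the 3 genes, in percent, 1 bar per mouse, 4 mice per group. Plin2 takes 27.6% to 42.1% of the sum in chow mice and 81.3% to 88.8% in HFD mice, with the genotypes side by side on each diet.

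Among the lipases, the 2 that act first were lower on HFD. *Pnpla2* measured 49.2, 139, 55.6 and 54.4 FPKM in flox/flox mice on chow, where 1 mouse stood far above the other three, and 76.2, 48.7, 48.8 and 32.3 on HFD. In ASKO mice it measured 86.3, 104, 73.9 and 113 FPKM on chow and 39.8, 19.5, 23.2 and 53.2 on HFD, with no overlap. The difference was -0.45 ± 0.39 (SE, limma adjusted p = 0.688) in flox/flox mice, -1.54 ± 0.39 (2.91-fold, limma adjusted p = 0.0351) in ASKO mice and -0.99 ± 0.27 (1.99-fold, limma adjusted p = 0.0332) over both. The flox/flox value rested in part on the chow mouse at 139 FPKM, and it was -0.10 ± 0.37 (SE) without that mouse. As for *Plin4*, the genotypes were not shown to differ in it (interaction -1.09 ± 0.55, SE, limma adjusted p = 0.796).

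*Lipe*, for hormone-sensitive lipase, measured 28.3, 31.2, 15.0 and 41.2 FPKM in flox/flox mice on chow and 22.4, 11.5, 14.4 and 12 on HFD. In ASKO mice it measured 41.5, 48.7, 28.4 and 39.4 FPKM on chow and 17.9, 21.2, 14.7 and 18.1 on HFD. The ASKO groups did not overlap, while 1 chow mouse at 15.0 FPKM lay among the HFD values of the flox/flox group. Over both genotypes *Lipe* was lower on HFD by -0.97 ± 0.24 (SE, 1.96-fold, limma adjusted p = 0.0172), and the estimates within flox/flox and ASKO mice, -0.86 ± 0.34 and -1.08 ± 0.34, missed the test (limma adjusted p = 0.227 and 0.0984). *Mgll*, the last of the 3 lipases, ran from 39.8 to 75.8 FPKM on chow and from 27.0 to 126 on HFD, and its difference over both was -0.34 ± 0.27 (SE, limma adjusted p = 0.56). Antisense genes share 15.6% of the exon bases of *Lipe* and 3.3% of those of *Mgll*, and whether strand entered the counting is not stated.

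The partners of ATGL missed the test, with wide intervals. *Abhd5* ran from 2.85 to 24.5 FPKM on chow and from 5.74 to 22.5 on HFD, and the difference was -0.24 (95% interval -0.96 to 0.49, limma adjusted p = 0.798). *G0s2* ran from 18.9 to 57.0 FPKM on chow and from 8.47 to 67.5 on HFD, and the difference was -0.72 (95% interval -1.49 to 0.05, limma adjusted p = 0.3). Both intervals include 0 and also falls of 0.96 and 1.49 on the log2 scale, so they do not show that the partners were steady. Antisense exons overlap 16% of the exon bases of *Abhd5*.

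*Adrb3*, which receives the noradrenaline signal in fat, measured 20.6, 24.5, 39.8 and 22.5 FPKM in flox/flox mice on chow and 4.37, 4.16, 20.9 and 23.3 on HFD. In ASKO mice it measured 36.2, 18.2, 17.3 and 29.3 FPKM on chow and 7.53, 10.4, 5.32 and 17.9 on HFD. The HFD flox/flox mice were divided, with one pair near 4 and the other pair at chow level. Over both genotypes *Adrb3* was lower on HFD by -1.28 ± 0.37 (SE, 2.43-fold, limma adjusted p = 0.044), with -1.29 ± 0.53 in flox/flox mice (limma adjusted p = 0.257) and -1.27 ± 0.53 in ASKO mice (limma adjusted p = 0.251). An antisense gene covers 24.9% of its exon bases.

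The calls other than that of *Plin2* lay close to the threshold. When each mouse was left out in turn, *Plin2*, *Lipe* and *Plin1* passed over both genotypes in all 16 fits, *Pnpla2* in 8, *Adrb3* in 4 and *Plin4* in 2, with adjusted p up to 0.0935 where a call was lost. Among 12 other settings, the call of *Adrb3* was lost in 9, of *Plin4* in 5 and of *Pnpla2* in 3. The calls of *Lipe* and *Plin1* were lost in 2 each. The 12 include the main fit read without the limit on the fold change, where no call can be lost. They also include a setting chosen after seeing the data, which left out 2 HFD mice. The calls of *Lipe*, *Plin4* and *Adrb3* were lost in it. A fit of only the groups compared is not among these 12. In ASKO mice, *Pnpla2* passed in 10 of 16 such fits and *Plin4* in 8, and leaving out any one of the 8 ASKO mice ended the call of *Plin4*.

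Other cell types moved with the diet as well. Of 12 macrophage markers, 11 rose on HFD over both genotypes. Their summed FPKM was 218 to 308 in chow mice and 743 to 1490 in HFD mice. *Gpnmb*, a gene of lipid-laden macrophages, rose by 6.09 ± 0.33 on the log2 scale (SE, limma adjusted p = 4.39e-09), and the macrophage marker *Cd68* by 3.68 ± 0.47 (limma adjusted p = 7.18e-05). Since macrophages also make *Plin2*, how much of its rise came from adipocytes was not tested. Of 10 adipocyte markers, 6 fell and 1 rose: *Cfd*, for adipsin, fell by 5.80 ± 0.26 (SE, limma adjusted p = 7.21e-10), *Adipoq* fell by 1.52 ± 0.18 (limma adjusted p = 3.69e-05) and *Lep*, for leptin, rose by 1.78 ± 0.23 (limma adjusted p = 9.27e-05). The summed FPKM of these markers was 8700 to 25200 in chow mice and 4330 to 10100 in HFD mice. Over both genotypes, no marker passed among 4 endothelial, 4 mesothelial, 1 brown adipocyte, 1 muscle and 1 lymphocyte marker tested. The mesothelial markers were nonetheless lower on HFD in sum, at 14.3 to 31.2 FPKM in chow mice and 0 to 10.9 in HFD mice without overlap, and their median difference was -1.37. Their part in the results of the members was not tested. Of 6 progenitor or fibroblast markers, 1 rose (*Col3a1*, a fibrillar collagen, by 1.22 ± 0.29, SE, limma adjusted p = 0.0127).

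When every mouse was scaled to 7 adipocyte markers, *Plin2* remained 3.22 ± 0.21 (SE) higher on HFD over both genotypes, and no other member passed the test. Of these 7 markers, 4 were themselves called lower on HFD over both genotypes (3.04% of all genes). Their median difference as deposited was -0.81, against -0.77 for the members, so a fall shared with the markers cannot show in this scaling. *Pnpla2* stood at -0.21 ± 0.25, *Lipe* at -0.19 ± 0.25, *Plin1* at -0.04 ± 0.25, *Plin4* at -0.10 ± 0.28 and *Adrb3* at -0.50 ± 0.41 (limma adjusted p = 0.509, 0.561, 0.917, 0.801 and 0.346). Under this scaling the median of all genes stood at 0.79, against 0.01 without it, with 3913 genes higher and 102 lower on HFD against 590 and 400 without it, so that these 5 members still lay below the median gene. Their falls were thus measured relative to all transcripts of the tissue, and relative to the adipocyte markers no fall was detected. Whether they changed within an adipocyte was not tested.

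**Figure D4:**
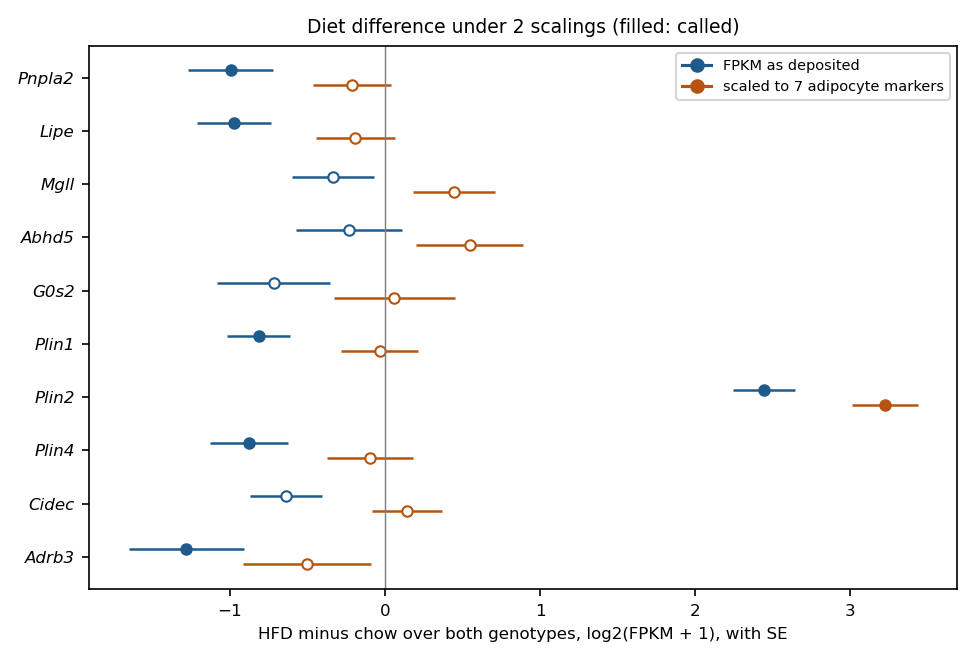
Difference HFD minus chow over both genotypes in log2(FPKM + 1), with SE bars, from FPKM as deposited and after scaling each mouse to 7 adipocyte markers. Filled points passed the test; Plin2 is filled at 2.44 and 3.22, while the 5 members called lower as deposited lie at -0.50 to -0.04 after scaling.

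The second question was what loss of *Mboat7* from adipocytes did to these genes. None of the 10 members passed the limma test between genotypes on chow (0.00761% of all genes passed), on HFD (0.00761%), over both diets (0.0% of all genes) or for the interaction of genotype and diet (0.0%). For all genes, 1 passed on chow, 1 on HFD and 0 over both diets or for the interaction, where 495 and 827 genes had an unadjusted limma p under 0.05. The median difference ASKO minus flox/flox of the members was 0.20 on chow and -0.16 on HFD.

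The intervals leave room for moderate differences. For *Plin2*, ASKO minus flox/flox was 0.05 on chow (95% interval -0.54 to 0.65) and 0.36 on HFD (-0.24 to 0.95), so that a change over 1 on the log2 scale, either way, lay outside both. For *Plin1* the values were 0.02 (-0.59 to 0.64) and 0.31 (-0.30 to 0.92), with the same bound. *Lipe* was at 0.49 (-0.22 to 1.21) and 0.28 (-0.44 to 0.99), and *Cidec* at 0.18 (-0.52 to 0.87) and -0.23 (-0.92 to 0.46).

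*Pnpla2*, *Mgll* and *Plin4* had estimates of opposite sign on the 2 diets. *Pnpla2* stood at 0.46 ± 0.39 on chow and -0.63 ± 0.39 on HFD, *Mgll* at 0.22 ± 0.38 and -0.70 ± 0.38, and *Plin4* at 0.56 ± 0.36 and -0.52 ± 0.36 (SE), with limma adjusted p of 0.973 or higher. For *Mgll*, 1 flox/flox HFD mouse was at 126 FPKM against 30.6 to 56.4 in the others, and without it the HFD value was -0.30 ± 0.32 (SE). *G0s2* stood at -0.27 ± 0.52 and -0.79 ± 0.52 and *Adrb3* at -0.10 ± 0.53 and -0.09 ± 0.53 (SE).

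In 2 cases the genotypes did not overlap. *Plin4* was 12.6 to 21 FPKM in ASKO and 6.37 to 12.2 in flox/flox mice on chow (2.19% of all genes did not overlap in that comparison). *Abhd5*, the activator of ATGL, was 17.6, 22.5, 12.9 and 13.1 FPKM in ASKO mice on HFD and 12.1, 8.67, 10.7 and 5.74 in flox/flox mice (3.38% of all genes). The difference for *Abhd5* was 0.77 ± 0.48 (SE, limma adjusted p = 0.978). In both cases the exact permutation test gave p = 0.0286, the smallest possible for 4 against 4 mice, without adjustment for the 50 such tests computed.

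**Figure D5:**
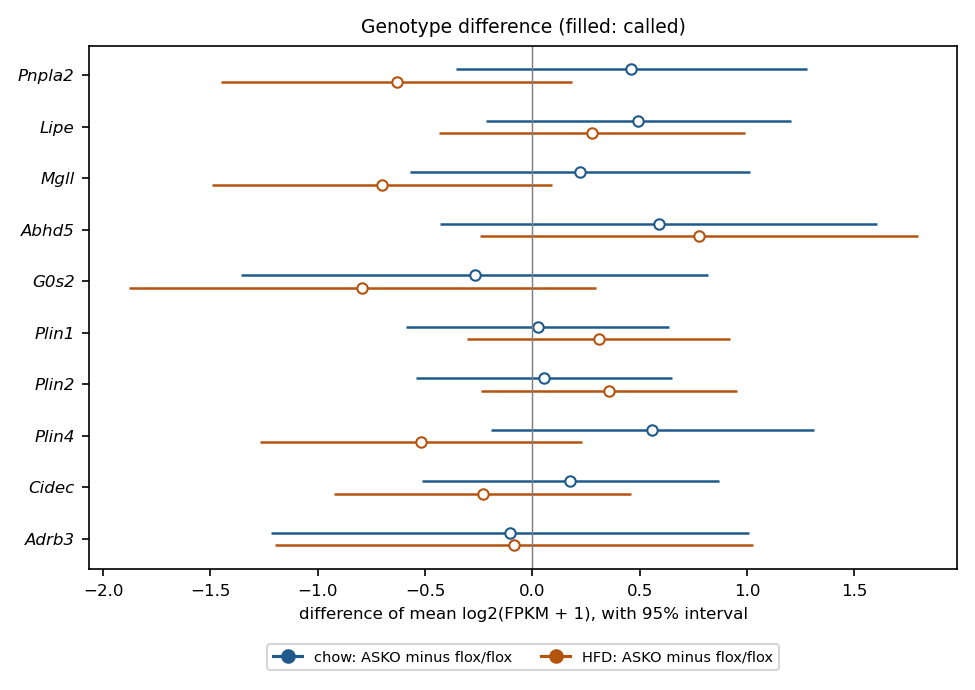
Difference ASKO minus flox/flox in mean log2(FPKM + 1) for each member on chow and on HFD, with 95% intervals from limma; open points did not pass the test. All 20 intervals include 0, and Pnpla2, Mgll, Plin4 and Cidec lie on opposite sides of 0 on the 2 diets.

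Other genes of the pathway were taken from 3 lists, in which most tested genes did not pass for diet over both genotypes (7.53% of all tested genes passed). Of 11 other lipase genes, 1 rose and 2 fell on HFD over both genotypes, and 8 did not pass. The gene that rose was *Lipa*, for the lysosomal acid lipase, from 1.88 to 5.97 FPKM over the 8 chow mice to 23.8 to 64.6 over the HFD mice (3.21 ± 0.25 on the log2 scale, SE, limma adjusted p = 4.7e-07). The genes that fell were carboxylesterases: *Ces1d*, which hydrolyses triglyceride in fat, by 2.22 ± 0.20 (limma adjusted p = 2.06e-06) and *Ces1f* by 1.73 ± 0.43 (limma adjusted p = 0.0188). *Ces1d* measured 123 to 263 FPKM in chow and 25.2 to 50.9 in HFD mice, with no overlap.

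Hormone control of lipolysis was represented by 25 further genes, of which 21 passed the filter. Of these, 1 fell on HFD over both genotypes and none rose. It was *Pde3b*, the phosphodiesterase through which insulin lowers cyclic AMP, which fell by 1.17 ± 0.23 (SE, limma adjusted p = 0.00347). It measured 36.0 to 98.5 FPKM in chow and 16.6 to 41.2 in HFD mice, so the diets overlapped at their edges. Of 20 other droplet proteins, 18 passed the filter: *Vim*, for vimentin, rose by 0.77 ± 0.18 and *Cav1*, for caveolin 1, fell by 0.73 ± 0.17 (SE, limma adjusted p = 0.013 and 0.0148), and 16 did not pass. The medians of the 3 lists over both genotypes were -0.03, -0.14 and 0.18, against 0.01 for all genes. As for the members, the cell types behind the changes in these lists were not tested.

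Within a diet the members did not vary as one block between mice. Over the 8 mice of a diet, the median Pearson correlation of the 45 pairs of members was -0.06 on chow and -0.02 on HFD, and single pairs ran from -0.70 to 0.84 and from -0.67 to 0.85. Mice share a library and its depth across genes, and the low counts behind several members limit any such value. After the group means were taken off, the genes most like each member over the 16 mice (among 6039 genes with a mean of at least 5 FPKM) had r of 0.919 with *Plin2* (*Ndufa13*), 0.899 with *Cidec* (*Dvl2*), 0.867 with *Mgll* (*B3gat2*), 0.865 with *Plin1* (*Trmt112*), 0.861 with *Lipe* (*Nt5m*), 0.853 with *Abhd5* (*Lrrn4cl*), 0.843 with *Adrb3* (*AY074887*), 0.841 with *Plin4* (*Rgs5*), 0.82 with *G0s2* (*Tfpi*) and 0.812 with *Pnpla2* (*Rab3d*). No member was among the 3 genes most like another member, and as the highest of that many values these are descriptions.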

How the data were processed

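RNA was sequenced from gWAT of 16 mice, each a separate animal with its own directional library. Per the study's methods, TrimGalore, STAR (mm10, GENCODE) and Cufflinks were the tools the authors used for trimming, alignment and FPKM values, and the deposited table holds FPKM per gene and mouse. The GENCODE release, strand setting and library normalization are not given in the sources used here.

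The 10 members and the gene lists were chosen with earlier results of these data known. Of 19373 genes, 19289 were matched by Ensembl identifier, and for 20 symbols on several rows the highest was kept. The 13147 genes that reached 1 FPKM in 4 or more mice entered limma 3.58.1 in R 4.3.3 on log2(FPKM + 1), which understates changes of low genes, in a single model of the 4 groups with an intensity trend and Benjamini-Hochberg adjustment within each of 7 contrasts. Contrasts that share mice are not independent. Cuffdiff needs reads and was not run. Single members were also compared with two-sided exact permutation tests.

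Named are all members, *Mboat7*, at most 4 called genes per list and, of 3 like genes found per member, the first. *Ckm*, *Myh4*, *Cd3e* and 5 epididymis or testis markers were looked up by symbol, were not found among the genes given, and so could not be analysed. Fragments were estimated from steps of low values in 1473 coding genes with 1 transcript. Of a mouse's low values, 48.7% to 78.0% lay within 0.2 of a whole step. Evenly spread values would also lie there in part, so the fragment numbers are rough. Results were also taken under 12 other settings, among them the main fit read without the limit on the fold change, and without each mouse in turn. In addition, 1 further setting was chosen after seeing the data.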

Additional observations from a re-analysis of the deposited data

Results flagged for a closer look

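Each group of 4 mice was examined for a single mouse whose gap to the others took a larger part of the group's range than Dixon's critical value at 95%, over 120 groups of values of the members, the named genes and library measures. Chance alone flags about 1 in 20 such groups, and 16 were found. Beyond the refits that left out mice, none of these flags was tested further. The main fit kept all 16 mice, and in it no gene passed the test for the interaction of genotype and diet.

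In flox/flox mice on chow, 1 and the same mouse (replicate 1) stood apart for *Pnpla2* (139 FPKM against 49.2 to 55.6 in the others), *Cidec* (932 against 452 to 518), *G0s2* (29.7 against 41.3 to 43.1), the FPKM sum (772000 against 612000 to 636000) and the share of the 10 highest genes (41.9% against 35.4% to 35.8%). Without that mouse *Pnpla2* over both genotypes was at -0.82 ± 0.25 (SE, limma adjusted p = 0.0646), and leaving out any of 7 other mice ended that call as well. In ASKO mice on chow, *Plin4* was at 21 FPKM in replicate 0 against 12.6 to 13.8 in the others, *Retn* at 316 in replicate 1 against 203 to 221, *Ces1f* at 10.3 in replicate 2 against 15.9 to 16, and *Gpnmb* at 1.54 in replicate 1, with the others listed at 0.

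The remaining marker values were *Cd68* at 8.06 FPKM in 1 flox/flox chow mouse (3.32 to 4 in the others), *Trem2* at 13 in another flox/flox chow mouse (others listed at 0), *Col3a1* at 122 in 1 flox/flox HFD mouse (26.6 to 40.7), and *Adgre1* at 57.1 (45.0 to 46.1) and *Trem2* at 88.2 (52.6 to 56.6) in the same ASKO HFD mouse. The library values were an estimated depth of 408000 fragments in 1 flox/flox HFD mouse (285000 to 297000) and a share of 54.2% in the 10 highest genes in 1 ASKO HFD mouse (38.7% to 39.2%).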

How the results depend on the processing

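The call of *Plin2* held in all 3 diet contrasts under all settings tried, at 2.19 to 3.39 on the log2 scale, and none of the 10 members passed a genotype or interaction contrast under any. The other calls depended on the setting. The lowest members rested on few estimated fragments, and the cause of a lost call was not tested. With adipocyte-marker scaling, 1 member passed in ASKO mice and 1 over both genotypes, and 1278, 1568 and 4015 genes passed in flox/flox mice, in ASKO mice and over both. There, estimates that were below 0 came out above it, none past the test, at 0.31 (*Pnpla2*), 0.33 (*Cidec*), 0.43 (*Abhd5*), 0.31 (*G0s2*) and 0.43 (*Plin4*) in flox/flox mice, 0.12 (*Plin1*) and 0.66 (*Abhd5*) in ASKO mice, and 0.44 (*Mgll*), 0.55 (*Abhd5*), 0.061 (*G0s2*) and 0.14 (*Cidec*) over both. A common sum without the 10 highest genes left 1 member in ASKO mice, where 463 genes passed. The median of all genes there was then 0.17, against 0.03. With fewer mice in the fit (only the groups compared), 1 member passed in ASKO mice, with 255 genes in flox/flox and 265 in ASKO mice. No intensity trend left 3 members over both, with 945 genes.

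The replicate numbers are different animals, and the deviations of mice with the same number correlated at -0.187 to 0.152, so they were not taken as pairs. With the replicate block, 2 members passed in flox/flox mice (*Plin1* and *Plin2*), 1 in ASKO mice and 3 over both genotypes. Of all 13147 genes, 361, 390 and 928 passed in the same order. Leaving out 2 HFD mice with over 50% of their FPKM in 10 genes, chosen after seeing the data, left 231 genes in flox/flox mice. Over both, 3 members and 706 genes then passed.

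Leaving out each mouse in turn gave 1 to 3 members in ASKO mice and 3 to 5 over both, and 255 to 421, 265 to 493 and 821 to 1022 genes in the 3 diet contrasts. The genes passing on chow and on HFD between genotypes went from 0 to 4 and from 0 to 3, and over both diets and in the interaction from 0 to 1. Other settings gave 0 genes (filter of 5 FPKM, adipocyte-marker scaling, replicate block in both; upper-quartile scaling and robust estimation on chow; quantile normalization, only the groups compared and the 2 mice left out on HFD) or 2 (no filter in both, the 2 mice left out on chow), and 1 over both diets and 1 in the interaction without the 2 mice. Of the estimates for single members, 74 changed sign, none of them of a called member and 68 from within 1 SE of 0.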
